A study of Mus musculus with 8 samples.

Results

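The keratins and the proteins of the cornified envelope in mouse lung are described here. The group holds the protein-coding genes whose symbol begins with Krt, Sprr or Lce and a digit, together with Crct1, Calm4, Lor and Ivl. Lor is listed as Loricrin in the annotation used. By this rule 96 of the 55416 gene identifiers were members, out of 21627 protein-coding ones. The group was chosen by measured values: the higher counts of squamous genes such as Crct1 and Krt16 in the LPS lungs than in the control and the dual-treated lungs were known when it was set. Values from LPS against control and from dual treatment against LPS are therefore given as a description and no p value is given there for a member. The numbers of members past the call used for all genes are printed for these contrasts too, and nothing is read from them. Dual treatment against control is tested.

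The study asked how YW3-56, an inhibitor of the peptidylarginine deiminases, which turn arginine into citrulline in proteins, alters the response of mice to lipopolysaccharide (LPS), a component of bacterial outer membranes. RNA-seq was done on a lung lobe of 8 C57BL/6 mice, which the methods describe as C57BL/6J females aged 6 to 8 weeks, 24 h after injection. The 3 control mice, numbered 1, 2 and 4, had DMSO by vein and saline into the abdomen. The 3 mice of the LPS group, numbered 1, 6 and 7, had 35 mg/kg LPS into the abdomen, and the 2 mice of the LPS_YW3-56 group, numbered 2 and 5 and called dual-treated here, had 10 mg/kg YW3-56 shortly before the same LPS dose. The methods do not describe a vehicle for the LPS group in the same way, and they give 3 mice per group while the labels give 2 dual-treated mice. Total counts were 19061949, 19796242 and 20527836 in the control mice, 20818501, 19379911 and 19279724 in the LPS mice, and 19875939 and 20908608 in the dual-treated mice. Levels are given as CPM, counts per 1000000 counts after scaling by edgeR's TMM factors, always in the order of the mouse numbers above. A count of 0 allows up to 3 counts, which is between 0.132 and 0.178 CPM depending on the library, and this limit covers counting error only. The lobes were measured whole, so fewer cells of a type and less RNA per cell cannot be told apart.

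Keratins form filaments from pairs of an acidic type I and a basic type II protein, and each epithelium has its own pairs. Krt8 and Krt18, with Krt7 and Krt19, belong to simple epithelia such as the alveolar and airway lining, Krt5 and Krt14 to the basal layer of stratified epithelia, Krt4 and Krt13 to the upper layers of mucosae such as the oesophagus, and Krt1 and Krt10 to the epidermis. In the outermost squamous cells involucrin, loricrin, the small proline-rich proteins and the late cornified envelope proteins are cross-linked by transglutaminases beneath the membrane into the cornified envelope, a structure of skin, mouth, oesophagus and forestomach.

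The members were divided by role into 6 simple epithelial keratins, 3 basal keratins, 4 activation keratins, 5 cornifying epidermal keratins, 8 mucosal and other stratified keratins, 26 hair and root sheath keratins, 2 other keratins (Krt42 and Krt222), 17 small proline-rich proteins, 15 Lce1 and Lce6 genes, 6 Lce3 genes, and the set of Crct1, Calm4, Loricrin and Ivl. On GRCm39, 41 of them lay on chromosome 3 between positions 91987578 and 92926367, the epidermal differentiation complex. The keratins lay in clusters of 27 genes on chromosome 11 (99123587 to 100160697) and 27 genes on chromosome 15 (101245325 to 101940462), and Calm4 lay on chromosome 13. The files name genes by Ensembl identifier, such as ENSMUSG00000049382 for Krt8, ENSMUSG00000023043 for Krt18, ENSMUSG00000059668 for Krt4, ENSMUSG00000044041 for Krt13 and ENSMUSG00000043165 for Loricrin. Of the 96 members, 62 passed edgeR's expression filter, which kept 18560 genes in all, and 34 did not. A member that is high only in LPS lungs passed that filter through the LPS group. There were 9 members without a count in any lung, namely Krt27, Krt33b, Krt40, Krt71, Krt72, Krt73, Krt82, Krt85 and Sprr4. A level of 1 CPM in at least 1 lung was reached by 60 members, all of which are named below, and the other 36 stayed lower, with the highest level at 0.997 CPM for Krt1.

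The LPS lungs did not form a uniform group, and mice 6 and 7 stood apart from mouse 1. The 90 members outside the simple keratins summed to 179.7, 207 and 203 CPM in the control mice and 214 and 344 CPM in the dual-treated mice. In the LPS mice the sum was 177 CPM for mouse 1, 1347 CPM for mouse 6 and 3069 CPM for mouse 7. LPS mouse 1 thus lay just below the control mice, while mice 6 and 7 were above every other lung. The sum of LPS mouse 1 had a different make-up from that of the control mice. Krt80 held 73.6%, 77.5% and 74.6% of these counts in the control mice, 36% in LPS mouse 1 and 72.3% and 82.8% in the dual-treated mice. Krt87 held 0.571%, 0.726% and 0.589% in the control mice and 34.6% in LPS mouse 1. Members with at least 1 count numbered 31, 37 and 35 in the control lungs, 41 and 40 in the dual-treated lungs, 32 in LPS mouse 1, and 74 and 77 in LPS mice 6 and 7. Of the 96 members, 51 were higher in LPS mice 6 and 7 than in all other lungs, and 36 had at least 10 counts in both of these and at most 3 counts in each of the others. The 36 were 12 small proline-rich proteins, 14 Lce1 genes, 6 Lce3 genes, Crct1 and Calm4, 1 activation keratin and 1 hair keratin. In contrast the simple keratins summed to 1385, 1358 and 1456 CPM in the control, 1026, 820.3 and 733 CPM in the LPS and 1129.8 and 1636 CPM in the dual-treated mice, with all LPS lungs below all others.

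**Figure D1:**
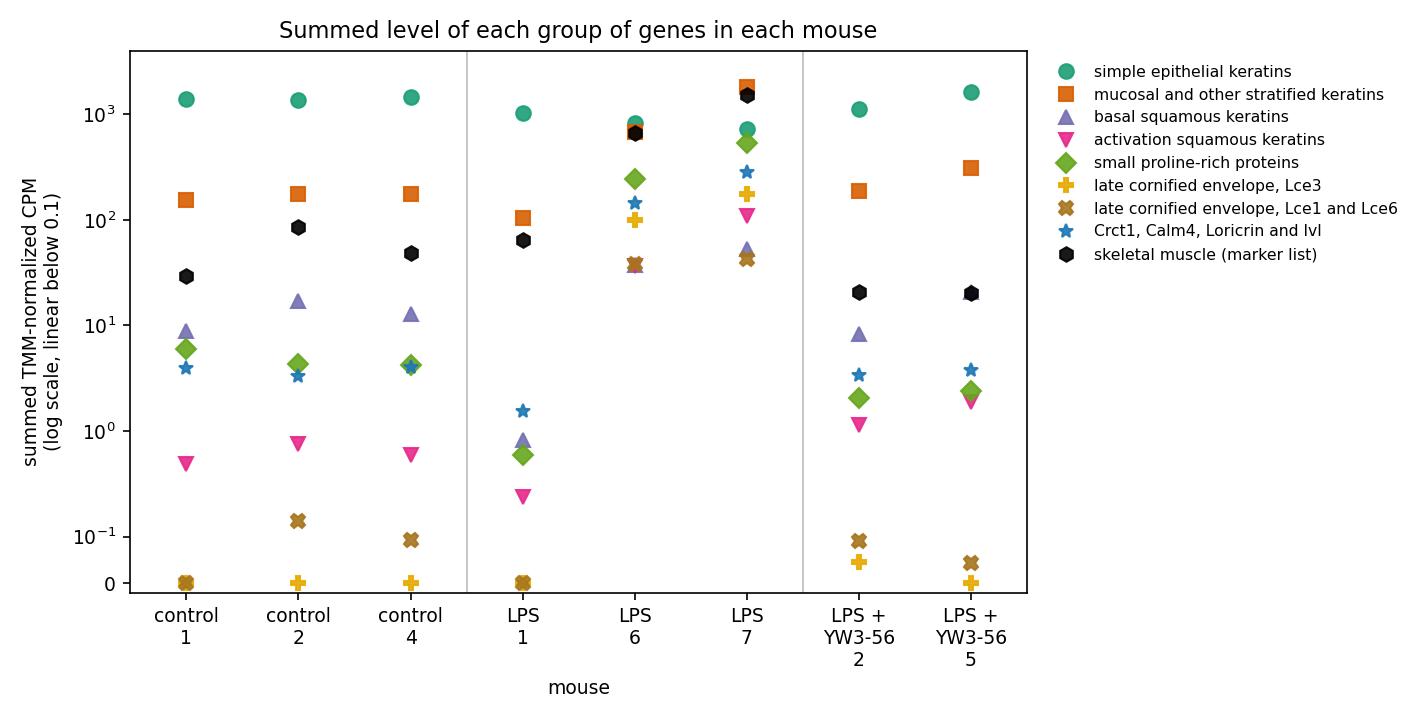
Summed TMM-CPM of each group of members and of the skeletal muscle list (y axis, log scale, linear below 0.1) in the 8 lungs (x axis, by group and mouse number), 1 symbol per gene group. The simple keratins stayed between 733 and 1636 CPM, while the small proline-rich, Lce and activation groups and the muscle list were highest in LPS mice 6 and 7.

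A list of 16 skeletal muscle genes was high in the same lungs as the squamous members. It summed to 29.3, 86.4 and 48.2 CPM in the control mice, 63.9 CPM in LPS mouse 1, 666 and 1536 CPM in LPS mice 6 and 7, and 20.7 and 20.1 CPM in the dual-treated mice. Its most abundant gene, Acta1 (skeletal actin), had 0, 0.328 and 0.689 CPM in the control mice, 0.533, 209 and 599.7 CPM in the LPS mice and 0.181 and 0.0877 CPM in the dual-treated mice. Of its 13 tested genes 12 were called higher and 0 lower in LPS than in control, against 1 called higher without LPS mice 6 and 7, and Tnnc2, a fast troponin, had no count in any LPS lung. Among all genes tested 17.9% were called higher and 21.3% lower in LPS than in control. Oesophagus, which in mice has a cornified squamous lining and a striated muscle wall, lies beside the lungs, and the part of neighbouring tissue in the squamous values was not tested. Heart muscle, which also borders the lung, did not follow the same lungs. Its 8 genes summed to 433, 1195 and 686 CPM in control, 584, 904 and 538 CPM in LPS and 256 and 251 CPM in dual-treated mice, with Myh6 the most abundant. The LPS lungs lay within the control range and both dual-treated lungs below all others. Of the 8 genes 0 were called higher and 1 lower in LPS than in control, 6 lower in dual treatment than in LPS (4 to 6 with 1 library left out) and 6 lower in dual treatment than in control (4 to 8 with 1 library left out, except 1 without dual-treated mouse 2).

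Counted with the call used throughout, a fold change over 2 with an edgeR quasi-likelihood p adjusted by the Benjamini-Hochberg method under 0.05, 46 members were higher and 4 lower in LPS than in control lungs. Over all 18560 genes 17.9% were called higher and 21.3% lower, and nothing is read from the members' numbers because this contrast chose them. The 4 lower members were Krt19, Krt23, Krt80 and Ivl. Without LPS mice 6 and 7 the counts were 3 higher (Krt86, Krt87 and Krt88) and 8 lower, the latter being the same 4 with Krt5, Krt14, Krt15 and Sprr1a, but the LPS group is then mouse 1 alone and the spread comes from the control and dual-treated lungs only. Between dual-treated and LPS lungs 4 members, again Krt19, Krt23, Krt80 and Ivl, were higher and 45 were lower after dual treatment, beside 19.8% and 14% of all genes. That number of lower members was 19 without LPS mouse 6, 18 without LPS mouse 7, 8 without dual-treated mouse 2, 5 without dual-treated mouse 5, and 2 (Krt87 and Krt88) without LPS mice 6 and 7 together, when 8 were higher. Leaving out a dual-treated mouse leaves 1 in that group. DESeq2 gave 28 lower members in place of 45, and 32 higher members in place of 46 in LPS against control. The comparisons share the LPS lungs and are not independent. The median log2 fold change of the simple keratins was −0.58 in LPS against control, beside −0.01 over all genes. Scaling by library size alone moved the median of all genes by −0.28 in LPS against control and by 0.32 in dual treatment against LPS.

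Among the simple epithelial keratins, Krt7, a type II keratin of ductal and alveolar epithelium, had 645, 558 and 593 CPM in the control mice, 511, 424 and 336 CPM in the LPS mice and 461 and 707 CPM in the dual-treated mice. Each LPS lung was below each control lung, and the dual-treated lungs lay on either side of the control range. Krt8, the general type II keratin of simple epithelia, had 307, 337 and 362 CPM in control, 274, 202 and 205 CPM in LPS and 270.3 and 391 CPM in dual-treated mice. Its type I partner Krt18 had 165, 170.3 and 180.1 CPM in control, 136, 102 and 106 CPM in LPS and 144 and 187 CPM in dual-treated mice. Both kept the pattern of Krt7, with LPS mouse 1 nearest to the control lungs, dual-treated mouse 2 below the control range and mouse 5 above it. The LPS mean was 0.708 times the control mean for Krt7, 0.677 times for Krt8 and 0.668 times for Krt18, so none of the 3 met the fold criterion. Without LPS mice 6 and 7 their log2 fold changes were −0.23, −0.29 and −0.34, against −0.50, −0.56 and −0.58 with all mice.

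Krt19, the smallest type I keratin, without a tail domain, differed more. It had 249, 276 and 296 CPM in the control mice, 101, 88.5 and 79.4 CPM in the LPS mice and 244 and 335 CPM in the dual-treated mice, so the LPS lungs lay apart from both other groups and mouse 1 lay with mice 6 and 7. The means ± SD were 274 ± 23.4 in control (n = 3), 89.6 ± 10.9 in LPS (n = 3) and 289 ± 64.4 in dual-treated lungs (n = 2). The control mean was 3.05 times the LPS mean, and the dual-treated mean was 3.23 times the LPS mean. Krt23, a type I keratin of simple epithelia, had 17.8, 17.5 and 25.8 CPM in control, 4.21, 3.40 and 6.58 CPM in LPS and 10.7 and 16.6 CPM in dual-treated mice. All LPS lungs were below all others, the control mean was 4.31 times the LPS mean, and the dual-treated lungs were below the control lungs. Without LPS mice 6 and 7 the log2 fold change of LPS against control was −1.44 for Krt19 and −2.28 for Krt23, against −1.61 and −2.11 with all mice. Krt20, a keratin of gut and urothelium, had at most 7 counts in any lung.

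Per kilobase of exon, the order of the simple keratins in the control lungs was Krt8 (mean 171 CPM per kb), Krt19 (148), Krt18 (119.6), Krt7 (84.9) and Krt23 (5.84). In LPS mouse 7 it was Krt8 (105), Krt18 (73.6), Krt7 (47.7) and Krt19 (42.8), so Krt19 moved from above to below Krt18 and Krt7. The ratio of Krt8 to its partner Krt18 per kb was 1.36, 1.45 and 1.48 in control, 1.48, 1.45 and 1.42 in LPS and 1.38 and 1.53 in dual-treated mice. It stayed between 1.36 and 1.53 and the groups overlapped.

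**Figure D2:**
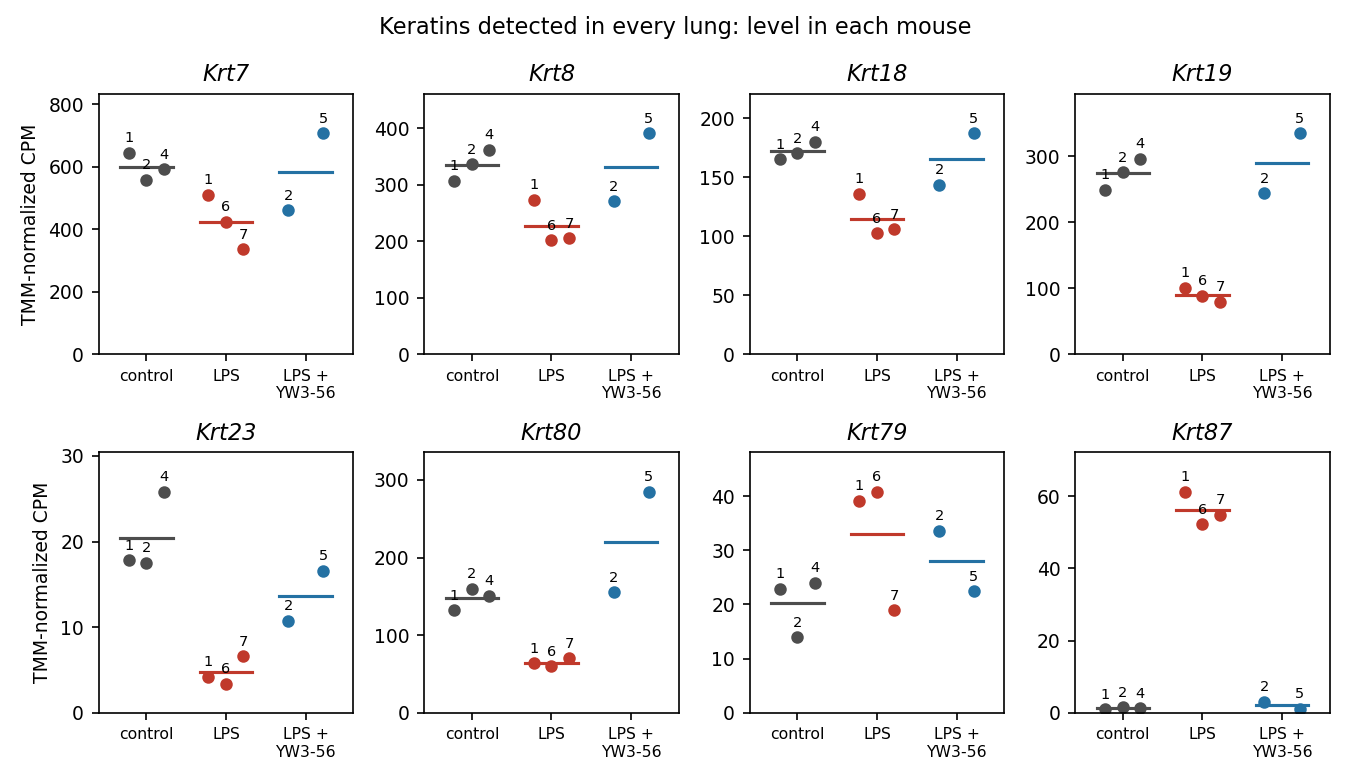
TMM-CPM (y axis) of 8 keratins detected in every lung, for control, LPS and dual-treated lungs (x axis), with 1 point per mouse marked by its number and a horizontal line at each group mean. Krt7, Krt8, Krt18, Krt19, Krt23 and Krt80 were lower in all LPS lungs than in all control lungs, and Krt87 was higher in all LPS lungs.

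Krt80, a type II keratin found near desmosomes in many epithelia, was the most abundant keratin outside the main simple ones in the control lungs, at a mean of 23.1 CPM per kb. It had 132, 160.1 and 151 CPM in control, 63.7, 60.1 and 70.0 CPM in LPS and 155 and 285 CPM in dual-treated mice. The 3 LPS lungs were close to each other and below all the rest, and the control mean was 2.29 times the LPS mean. Krt79, a type II keratin known from the ducts of hair follicles and sebaceous glands, had 22.9, 13.9 and 24.03 CPM in control, 39.2, 40.8 and 18.9 CPM in LPS and 33.6 and 22.5 CPM in dual-treated mice. Its groups overlapped, with LPS mouse 7 within the control range and mice 1 and 6 above it.

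The hair keratin Krt87, a type II keratin of the chromosome 15 cluster, was high in all 3 LPS lungs. It had 1.03, 1.5 and 1.19 CPM in the control mice, 61.2, 52.2 and 54.9 CPM in the LPS mice and 3.08 and 1.10 CPM in the dual-treated mice, so mouse 1 had the highest value and the groups of LPS and control lay far apart. The LPS mean was 45.2 times the control mean. Krt88, its neighbour in the same cluster, had counts of 3, 1 and 4 in control, 76, 36 and 47 in LPS and 9 and 10 in dual-treated mice. It too was highest in LPS mouse 1. Krt86, another hair keratin, had counts of 1, 6 and 2 in control, 14, 8 and 14 in LPS and 5 and 8 in dual-treated mice, and its LPS lungs were above the control lungs without reaching 1 CPM. Of the exon windows of 75 bases of Krt87, 20.3% were found also in other hair keratins, all of which were below 1 CPM. Among 111 hair shaft proteins of the Krtap family, 102 had no count in any lung, and the summed level was 3.76, 2.72 and 2.71 CPM in control, 1.07, 0.404 and 0.781 CPM in LPS and 0.635 and 1.67 CPM in dual-treated mice, with Krtap17-1 and Krtap28-10 the most abundant. Krt32, a type I hair keratin, had 0.865 and 1.23 CPM in LPS mice 6 and 7 and no count in any other lung.

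Among the basal keratins, Krt5, the type II keratin of basal cells, had 1.17, 2.63 and 0.873 CPM in control, 0.119, 17.2 and 23.5 CPM in LPS and 0 and 0.132 CPM in dual-treated mice. LPS mouse 1 and the dual-treated mice were below every control lung, and LPS mice 6 and 7 were above every other lung. Krt14, its usual type I partner, had 4.11, 7.69 and 9.88 CPM in control, 0.237, 17.1 and 22.7 CPM in LPS and 7.84 and 20.2 CPM in dual-treated mice. LPS mouse 1 was lowest, and dual-treated mouse 5 was as high as LPS mice 6 and 7. Krt15, a type I keratin of basal cells, had 3.67, 6.75 and 2.11 CPM in control, 0.474, 2.88 and 7.08 CPM in LPS and 0.408 and 0.482 CPM in dual-treated mice. The LPS lungs spanned the control range, and both dual-treated lungs were below all control lungs.

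The balance of the basal pair differed between lungs. Where both genes had at least 20 counts, the level of Krt5 per kb over that of Krt14 was 0.242 and 0.290 in control mice 1 and 2, and 0.854 and 0.879 in LPS mice 6 and 7. Control mouse 4, just below that limit, had 19 counts of Krt5 beside 215 of Krt14, or 0.395 and 5.27 CPM per kb. In dual-treated mouse 2 there were 0 counts of Krt5 beside 173 of Krt14, and in mouse 5 there were 3 beside 460, so Krt14 was present there almost without Krt5. A list of 7 airway basal cell genes summed to 669.7, 655 and 688 CPM in control, 2739.9, 2059 and 1994 CPM in LPS and 988 and 708 CPM in dual-treated mice. Icam1 and Pdpn were its most abundant genes, and Pdpn is also on the alveolar type 1 list read below. The sum was high in all LPS lungs and highest in LPS mouse 1, the lung with the lowest Krt14, so it is not read as a level of basal cells. Of the 7 genes on the list 2 were called higher and 1 lower in LPS than in control lungs, beside 17.9% and 21.3% of all genes. Trp63, the defining transcription factor of basal cells, had 0.978, 1.41 and 1.33 CPM in control, 0.119, 4.21 and 5.63 CPM in LPS and 2.49 and 0.482 CPM in dual-treated mice. It was highest in LPS mice 6 and 7 and lowest in LPS mouse 1, where the sum of the list was highest. The part of basal cells in the values of Krt5, Krt14 and Krt15 was not tested.

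The mucosal pair Krt4 and Krt13 gave the highest levels per kb of all members in LPS mice 6 and 7. Krt13, the type I member, had counts of 6, 2 and 4 in the control mice, 5, 4952 and 15897 in the LPS mice and 12 and 20 in the dual-treated mice, or 286 and 887 CPM in LPS mice 6 and 7. Krt4, the type II member, had counts of 0, 5 and 2 in control, 0, 5078 and 14676 in LPS and 2 and 10 in dual-treated mice, or 293 and 818 CPM in LPS mice 6 and 7. LPS mouse 1 was thus at the level of the control lungs for both. The level of Krt4 per kb over that of Krt13 was 0.876 in LPS mouse 6 and 0.788 in mouse 7. Krt13 at 487 CPM per kb and Krt4 at 384 CPM per kb were above Krt8 at 105 CPM per kb in LPS mouse 7, and in mouse 6 they stood at 157 and 137 beside 103 CPM per kb. Krt78, a type II keratin of stratified epithelia, had 2.31 and 5.69 CPM in LPS mice 6 and 7 and at most 0.328 CPM elsewhere.

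The activation keratins, which stratified epithelia make when wounded and which some mucosae hold at rest, followed the same lungs. Krt16 had counts of 0 in each control mouse, 4, 320 and 1004 in LPS and 1 and 4 in dual-treated mice, or 18.5 and 56.0 CPM in LPS mice 6 and 7. Krt6a, a type II partner of Krt16, had counts of 0, 3 and 3 in control, 0, 115 and 382 in LPS and 15 and 39 in dual-treated mice, so here the dual-treated lungs were above the control lungs. Krt6b, the close paralog of Krt6a, had counts of 0, 1 and 0 in control, 0, 168 and 530 in LPS and 0 in both dual-treated mice. Krt6a and Krt6b share 36.6% and 37.3% of their windows with other members, so the division of counts between them depends on how reads with several matches were handled. Per kb, Krt6a stood at 0.243 and 0.257 and Krt6b at 0.384 and 0.385 of Krt16 in LPS mice 6 and 7. Krt17, a type I keratin also of hair follicles, had 0.489, 0.563 and 0.459 CPM in control, 0, 1.44 and 1.06 CPM in LPS and 0.408 and 0 CPM in dual-treated mice, so it was also highest in LPS mice 6 and 7 but stayed low.

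The cornifying keratins of the epidermis were low throughout. Krt10, the type I keratin of the upper epidermal layers, had 2.2, 2.77 and 2.16 CPM in control, 2.85, 3.23 and 4.91 CPM in LPS and 1.99 and 2.37 CPM in dual-treated mice. Its LPS lungs were above the control lungs by less than the fold criterion. Krt1, its partner, had 0.147, 0.422 and 0.459 CPM in control, 0.0593, 0.635 and 0.613 CPM in LPS and 0.997 and 0.702 CPM in dual-treated mice. Its control and LPS lungs overlapped and both dual-treated lungs were above all others. In dual treatment against control its log2 fold change was 1.29 with an SE of 0.746 and an edgeR adjusted p = 0.283, and it was not called. Krt1 thus stayed below 1 CPM in the lungs in which Krt4 and Krt13 were high. Krt222, a keratin-like gene without a clear filament role, reached 2.18 CPM in dual-treated mouse 2 and stayed below 1 CPM elsewhere.

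Of the envelope proteins outside the families, Loricrin, a main component of the mature envelope, had 1.22, 1.03 and 1.19 CPM in the control mice, 1.07, 107 and 209.8 CPM in the LPS mice and 1.45 and 0.921 CPM in the dual-treated mice. LPS mouse 1 was at the level of the control lungs and mice 6 and 7 were far above it. Ivl, involucrin, the early scaffold of the envelope, went the other way. It had 2.69, 2.25 and 2.80 CPM in control, 0.356, 0.0577 and 0.0558 CPM in LPS and 1.90 and 2.90 CPM in dual-treated mice, so all LPS lungs were below all others and the lowest values were those of mice 6 and 7, each with 1 count. Crct1, a cysteine-rich protein encoded beside the Lce genes, had 0 counts in each control and dual-treated mouse and counts of 1, 494 and 886 in the LPS mice, or 28.5 and 49.4 CPM in mice 6 and 7. Calm4, a calmodulin-like protein of squamous cells, had counts of 1, 0 and 0 in control, 1, 170 and 425 in LPS and 0 in both dual-treated mice. Both were near the floor in LPS mouse 1. The annotated span of Calm4 overlaps that of another gene model on the same strand. Whether their exons overlap, so that part of the reads of Calm4 could be lost, was not tested.

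The small proline-rich proteins bridge other proteins in the envelope. Sprr1a, the member also known from injured tissues, was the only one with more than a few counts in every lung. It had 5.82, 4.22 and 4.18 CPM in the control mice, 0.593, 14.1 and 39.3 CPM in the LPS mice and 1.68 and 1.93 CPM in the dual-treated mice. LPS mouse 1 was the lowest lung, mice 6 and 7 were the highest, and the dual-treated lungs lay below the control lungs. Sprr2d had 0 counts in the control lungs and LPS mouse 1, 73.9 and 138 CPM in LPS mice 6 and 7, and 2 and 2 counts in the dual-treated mice. Sprr3, typical of the oesophagus, had 0 counts in the control mice and LPS mouse 1 and 1 and 1 in dual-treated mice, against 46.2 and 125 CPM in LPS mice 6 and 7. Sprr2i had 0 counts in the control mice and LPS mouse 1 and 1 and 3 in dual-treated mice, against 32.3 and 80.8 CPM in LPS mice 6 and 7. These 3 were the most abundant of the family in LPS mice 6 and 7, and the other lungs held nearly none of their RNA. Against the floor of 3 counts, the LPS mean was at least 499-fold above control for Sprr2d, at least 404-fold for Sprr3 and at least 266-fold for Sprr2i. These means include mouse 1 at 0 and rest on mouse 7, without which the bounds were 261, 163 and 114.

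Sprr2a3 had 0 counts in the control mice and LPS mouse 1 and in both dual-treated mice, against 30.9 and 50.1 CPM in LPS mice 6 and 7. Sprr2b had 0 counts in the control mice and LPS mouse 1 and 0 and 1 in dual-treated mice, against 24.1 and 47.8 CPM in LPS mice 6 and 7. Both repeat the pattern of Sprr2d at a lower level. Sprr2a1 and Sprr2a2 overlap and share 94.7% and 92.3% of their windows with other members, and Sprr2a3 shares 47.5%, so their single values are uncertain. Sprr2a2 had 0, 1 and 1 counts in control, 0 in LPS mouse 1 and 2 and 1 in dual-treated mice, against 6.23 and 13.8 CPM in LPS mice 6 and 7. In LPS mice 6 and 7, Sprr2a1 had 4.73 and 8.87 CPM, Sprr5 3.52 and 9.82, Sprr2j-ps 3.64 and 8.31, Sprr2e 3.12 and 4.96, Sprr2h 2.25 and 4.52 and Sprr2f 0.750 and 1.73, and none of them exceeded 3 counts in another lung. Sprr1b with 0.462 and 4.91 CPM and Sprr2g with 0.288 and 1.17 CPM were also highest in these lungs but did not pass the filter. The whole family summed to 5.96, 4.31 and 4.23 CPM in control, 0.593, 246 and 540.2 CPM in LPS and 2.04 and 2.41 CPM in dual-treated mice. LPS mouse 1 and the dual-treated lungs were thus below every control lung. Outside LPS mice 6 and 7 most of this sum was Sprr1a, so that order is the order of Sprr1a and not a trait of the family.

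The late cornified envelope genes divide by position and use, with Lce1 known mainly from normal epidermis and Lce3 from wounded skin and from mucosa. The 6 Lce3 genes had no count in any control lung or in LPS mouse 1, and 1 count among the dual-treated lungs. Lce3b had 34.7 and 56.7 CPM in LPS mice 6 and 7 and 0 counts in all other lungs. Lce3a had 24.98 and 56.4 CPM in these lungs, with counts of 1 and 0 in the dual-treated mice and 0 elsewhere. Lce3c had 16.8 and 26.2 CPM and Lce3e 6.81 and 12.9 CPM in the same lungs, and 0 counts elsewhere. Lce3f had 7.15 and 12.0 CPM and Lce3d 8.71 and 10.7 CPM, and 4 of these genes, Lce3c to Lce3f, share between 25.5% and 45.6% of their windows with other members. The LPS mean, mouse 1 at 0 included, was at least 215-fold above control for Lce3b, at least 191-fold for Lce3a and at least 101-fold for Lce3c, and without LPS mouse 7 these bounds were 123, 88.2 and 59.5.

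Of the 15 Lce1 and Lce6 genes 14 passed the filter, all of them Lce1 genes. Per kb they were lower than Lce3 in both LPS mice 6 and 7, the highest Lce1 level being 10.6 CPM per kb (Lce1c) and the lowest Lce3 level 11.2 CPM per kb (Lce3e). In LPS mice 6 and 7 the highest were Lce1c with 4.21 and 7.70 CPM, Lce1a2 with 5.77 and 5.02, Lce1a1 with 5.02 and 5.02, Lce1d with 4.5 and 4.46 and Lce1b with 2.94 and 4.13. Next came Lce1g with 3.17 and 2.23 CPM, Lce1m with 2.08 and 3.12, Lce1i with 2.54 and 1.51, Lce1l with 1.96 and 2.34, Lce1f with 1.15 and 1.95, Lce1k with 1.85 and 1.78, Lce1j with 1.27 and 1.23 and Lce1h with 1.15 and 1.23. All were absent or nearly so from the other 6 lungs, where the summed level of the 15 genes was at most 0.141 CPM.

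**Figure D3:**
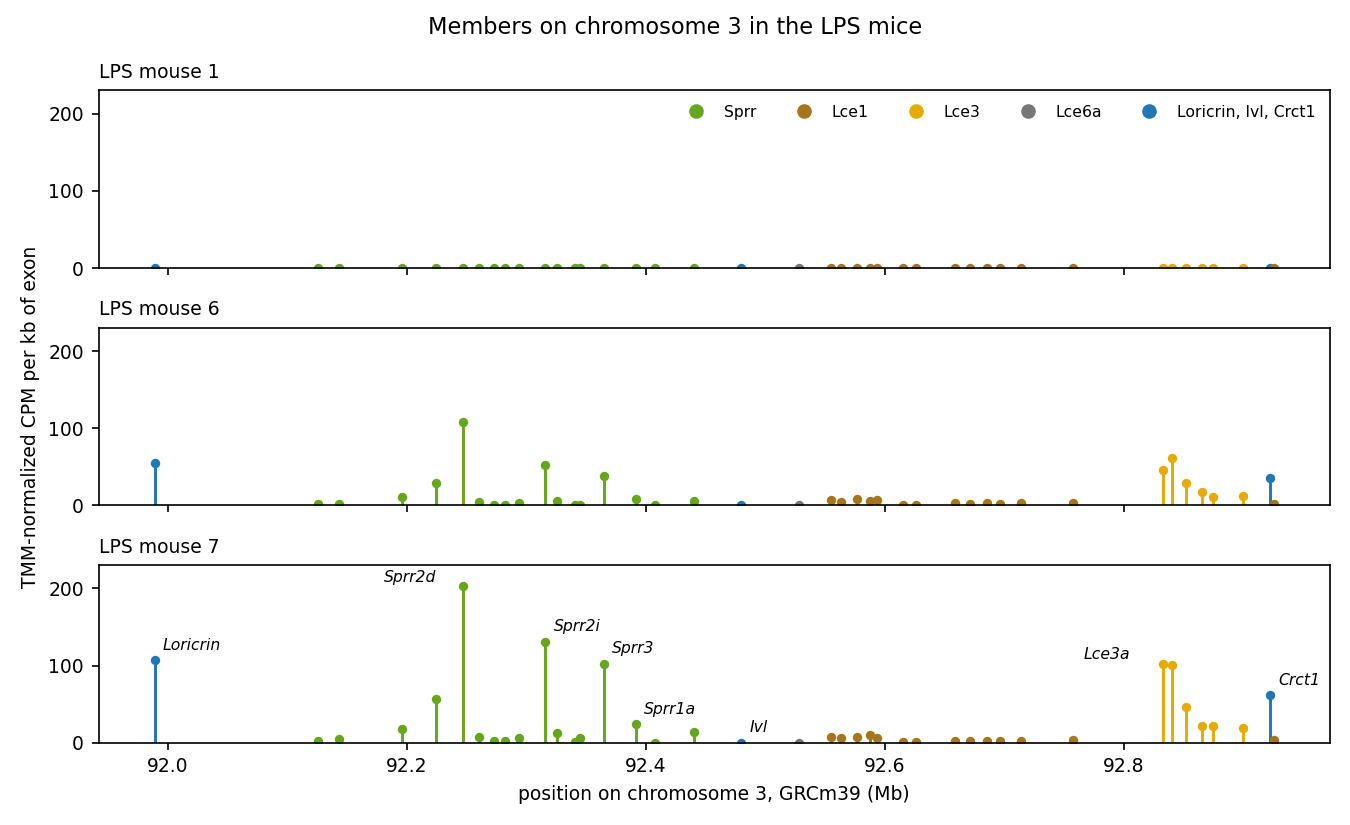
Level in TMM-CPM per kb of exon (y axis) of the members on chromosome 3 in LPS mice 1, 6 and 7 (1 panel each), 1 stem per gene at its GRCm39 position (x axis, Mb), coloured by family. LPS mouse 1 was near 0 throughout, and in mouse 7 Sprr2d reached 203 and Lce3a 103 CPM per kb while Lce1 genes stayed at or below 10.6 and Ivl near 0.

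The ratio of LPS mouse 7 to LPS mouse 6 differed between the groups of members. It was taken over genes with at least 20 counts in both lungs, and over all 14515 such genes its median was 1.005 with percentiles 5 and 95 at 0.6595 and 1.66. The median was 1.015 for 5 simple keratins and 0.9999 for 13 Lce1 genes. It was 1.655 for 6 Lce3 genes, 1.96 for Crct1, Calm4 and Loricrin, 2.11 for 12 small proline-rich proteins, 2.47 for 5 mucosal and other stratified keratins and 3.05 for 3 activation keratins. Within the mucosal and other stratified keratins it ran from 0.464 for Krt79 and 1.16 for Krt80 to 3.10 for Krt13. Krt79 and Krt80 were not among the members higher in LPS mice 6 and 7 than in all other lungs. Squamous groups thus differed from each other in this ratio, which rests on 1 pair of lungs and was not tested. For 11 skeletal muscle genes the median was 2.25, over a range from 0.981 to 14.5, and for 32 squamous partners it was 1.69.

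**Figure D4:**
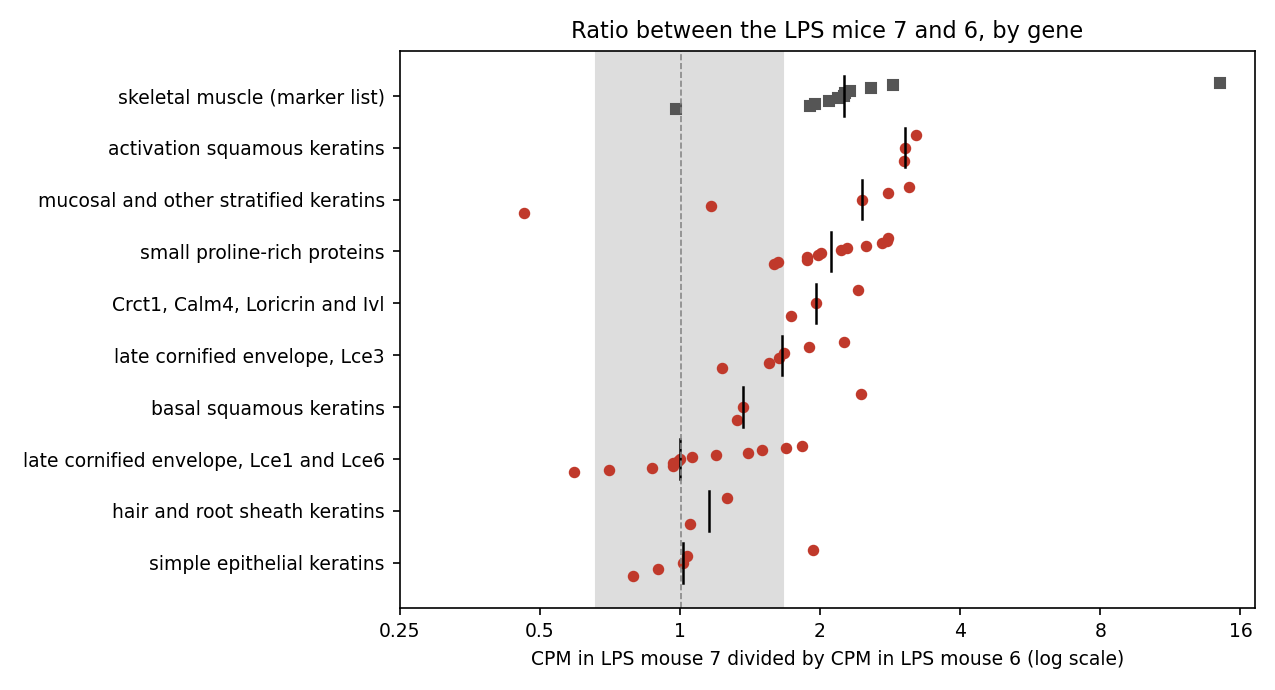
CPM in LPS mouse 7 over CPM in LPS mouse 6 (x axis, log scale), 1 point per gene with at least 20 counts in both lungs, by group (y axis), with black bars at the group medians, a dashed line at the median of all genes and a grey band from their percentile 5 to 95. Lce1 genes lay around the dashed line and activation keratins around 3.05.

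A list of 45 partners of squamous differentiation (transglutaminases, desmosomal proteins, proteases and lipid enzymes of the envelope) was read beside the members. Of its 36 tested genes 22 were called higher and 2 lower in LPS than in control, 1 higher and 18 lower in dual treatment than in LPS, and 1 lower (Scel) in dual treatment than in control. With 1 library left out the 22 became 14 to 24, with 14 without LPS mouse 7, and the 2 lower became 1 to 3. The 18 lower in dual treatment than in LPS became 24 without LPS mouse 1, 11 without LPS mouse 6, 9 without LPS mouse 7, 7 without dual-treated mouse 2 and 8 without dual-treated mouse 5. Without LPS mice 6 and 7, 3 were called higher and 4 lower in LPS than in control, and 5 higher and 3 lower in dual treatment than in LPS. In dual treatment against control the number called higher was 0, against 3 without LPS mouse 1 and 2 without LPS mouse 7 or without LPS mice 6 and 7. Cnfn, cornifelin, had 0 counts in control, 0, 55.1 and 123 CPM in LPS and 0.181 and 0.746 CPM in dual-treated mice. Krtdap, a secreted keratinocyte protein, had 0 counts in control, 0, 83.7 and 116 CPM in LPS and 0.499 and 0.175 CPM in dual-treated mice. Dsg3, a desmosomal cadherin of squamous epithelia, had 0, 18.5 and 41.1 CPM in LPS mice and 0 counts in all others. These 3 followed Crct1, with LPS mouse 1 at 0. Tgm1, the cross-linking transglutaminase, had 8.07, 9.94 and 10.3 CPM in control, 49.1, 52.9 and 61.2 CPM in LPS and 19.04 and 13.9 CPM in dual-treated mice, and so was higher in all 3 LPS lungs. Jup, plakoglobin, the partner with the most counts, had 414, 461 and 518 CPM in control, 94.8, 110.2 and 132 CPM in LPS and 288 and 392.5 CPM in dual-treated mice and was lower in all 3 LPS lungs. Padi1, an arginine deiminase of epidermis, had 1.71, 1.88 and 1.19 CPM in control, 0, 0.288 and 2.40 CPM in LPS and 0.272 and 0.702 CPM in dual-treated mice. Crnn and Flg2 had no count in any lung and Flg, filaggrin of the epidermal granular layer, none in any LPS lung. The list summed to 1125, 1090.5 and 1155 CPM in control, 943, 1373 and 1878 CPM in LPS and 906 and 1069 CPM in dual-treated mice.

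Epithelial cell types of the lung itself were read from marker lists, and their part in the keratin values was not tested. The calls of each list stand beside 17.9% of all genes called higher and 21.3% called lower in LPS than in control. A list of 11 pan-epithelial genes, of which Cdh1 was the most abundant, summed to 1201, 1178 and 1252 CPM in control, 2591, 2059 and 2191 CPM in LPS and 937 and 1010.4 CPM in dual-treated mice. Of these 7 were called higher and 0 lower in LPS than in control. Their summed level was thus higher in each LPS lung than in each control lung. The summed simple keratins were lower in the same lungs, with only Krt19 and Krt23 among them called. The 8 alveolar type 1 genes, led by Ager, summed to 5406, 4966 and 5125 CPM in control, 4519, 3691 and 2617 CPM in LPS and 2875 and 3595 CPM in dual-treated mice, with 0 called higher and 3 lower in LPS. The 8 alveolar type 2 genes, led by Sftpc, summed to 37864, 31673 and 39738 CPM in control, 25949, 18154 and 14610.3 CPM in LPS and 19262 and 30457 CPM in dual-treated mice, with 4 called lower in LPS. Both alveolar lists were lowest in LPS mouse 7, as were the summed simple keratins. The 7 mesothelial genes, led by Msln, summed to 612, 505 and 537 CPM in control, 432, 386 and 326 CPM in LPS and 414 and 618 CPM in dual-treated mice, with 4 of 6 tested called lower in LPS. The 7 club cell genes, led by Scgb1a1, summed to 32756, 41484 and 38154 CPM in control, 70313, 61368 and 59672 CPM in LPS and 24825 and 27175 CPM in dual-treated mice, with 3 called higher in LPS. The 7 ciliated cell genes, led by Tppp3, summed to 545, 667 and 692 CPM in control, 658, 646 and 764 CPM in LPS and 536 and 576 CPM in dual-treated mice, with 1 called higher in LPS. The 10 genes of the transitional alveolar state, a Krt8-high state of alveolar cells after injury, led by Cdkn1a, summed to 1041, 869 and 985 CPM in control, 4449, 3156 and 2992 CPM in LPS and 1172 and 978 CPM in dual-treated mice, with 7 called higher in LPS, while Krt8 itself was lower there.

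Cartilage, thymocyte and thyroid genes did not follow LPS mice 6 and 7 as skeletal muscle did. The 10 cartilage genes, led by Col11a2 and with Acan at 0 in all lungs, summed to 6.31, 7.08 and 7.72 CPM in control, 11.2, 8.48 and 8.48 CPM in LPS and 7.93 and 9.43 CPM in dual-treated mice. The 6 thymocyte genes, led by Cd8b1, summed to at most 2.06 CPM. The 6 thyroid genes, led by Tg, summed to 3.91, 3.28 and 4.27 CPM in control, 5.81, 5.48 and 4.63 CPM in LPS and 8.98 and 2.85 CPM in dual-treated mice. The 6 adipose genes, led by Fabp4, varied within every group, with 88.6, 557 and 96.6 CPM in control, 122, 273 and 393 CPM in LPS and 1133 and 69.6 CPM in dual-treated mice. Within the LPS group they were higher in mice 6 and 7 than in mouse 1, and the ratio of mouse 7 to mouse 6 had a median of 2.12 over 5 genes with a range from 1.06 to 13.3, near that of skeletal muscle, but control mouse 2 and dual-treated mouse 2 were higher still. The part of adipose tissue in the squamous values was not tested.

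Dual treatment against control was not a contrast that chose the members, although both of its groups were on the low side of the choice, and it was tested. Of the 62 members 0 were called higher and 0 lower by edgeR, 3 passed at an unadjusted p under 0.05, and DESeq2 called 0 higher and 1 lower. Of all genes 5.25% were called higher and 1.90% lower, but 36 of the 62 members had at most 3 counts in each control and dual-treated lung, passed the filter through the LPS lungs and could hardly be called, so the 0 of 62 are not compared with these percentages. The shared fit takes its spread from all groups, the split LPS group included. Without LPS mice 6 and 7 the call gave 1 higher (Krt6a) and 3 lower members (Krt15, Krt5 and Sprr1a). Leaving out LPS mouse 1 gave 1 higher (Krt6a) and 2 lower (Krt15 and Krt5), leaving out LPS mouse 7 gave 1 lower (Krt15), and leaving out dual-treated mouse 5 gave 1 higher (Krt87). Of the lists read beside the members, the genes called lower in this contrast were 6 of 8 for heart muscle, 2 of 8 for alveolar type 1, 2 of 7 for club cell, 1 of 6 for mesothelium, 1 of 13 for skeletal muscle (Mb), 1 of 36 for the squamous partners and 1 of 10 for the transitional alveolar state, which also had 1 called higher. The skeletal muscle number was 0 without control mouse 2, control mouse 4, LPS mouse 6 or LPS mouse 7, and 2 without LPS mouse 1. It was 0 with scaling by library size alone and 4 without the filter. The part of these lists in the values of the members was not tested.

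Krt15 was closest to a call. It had counts of 75, 144 and 46 in the control mice and 9 and 11 in the dual-treated mice, and both dual-treated lungs were below all 3 control lungs. The log2 fold change was −3.21 with an SE of 0.986 and an edgeR adjusted p = 0.0547, the range over the alternatives was 0.000471 to 0.236, and DESeq2 gave 0.00106. Krt5 had counts of 24, 56 and 19 in control and 0 and 3 in dual-treated mice. Control was at least 11.6-fold above dual treatment (7.65-fold without control mouse 2), all dual-treated lungs were lower, and the edgeR adjusted p = 0.184 ranged from 0.00846 to 0.490 over the alternatives. Krt6a was above all control lungs in both dual-treated lungs, at least 8.44-fold (4.8-fold without dual-treated mouse 5), with an edgeR adjusted p = 0.229 and a range of 0.0229 to 0.503. Sprr1a was below all control lungs in both, with a log2 fold change of −1.39, an edgeR adjusted p = 0.443 and a range of 0.0129 to 0.688. Krt88 had a log2 fold change of 1.70 with an SE of 0.629, both dual-treated lungs above all control lungs, an edgeR adjusted p = 0.0973 and a range of 0.0836 to 0.247. For Krt80 the log2 fold change was 0.57 with an SE of 0.214 and an edgeR adjusted p = 0.0998, and DESeq2 gave 0.0590. Over the alternatives its adjusted p went both well below and well above these values. The fold rests on dual-treated mouse 5, at 285 CPM, since mouse 2, at 155 CPM, lay within the control range. Krt87 had a log2 fold change of 0.74 with an SE of 0.370, against −0.21 without dual-treated mouse 2, 1 of the dual-treated lungs lay within the control range, and the edgeR adjusted p = 0.211 ranged from 0.00527 to 0.767. Among the simple keratins the log2 fold changes were −0.04 for Krt7, −0.02 for Krt8, −0.05 for Krt18 and 0.08 for Krt19, while Krt23 had −0.58 with an edgeR adjusted p = 0.228.

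Promoters are shown because 37 of the 41 members on chromosome 3 were higher in LPS mice 6 and 7 than in all other lungs, the others being Ivl, Lce6a, Sprr2k and Sprr4. RefSeq promoters, from a table on GRCm38.p6, were found for 73 members with 74 start sites, and the bases before the start were searched on both strands for the AP-1 motif TGACTCA, known from keratinocyte genes, and for the TATA box letters TATAAA, which cannot overlap it. TGACTCA was found in 11 of the 74 (14.9%) against 4.46% of all 32851 promoters. It was present in 8 of 14 for the small proline-rich proteins, in 0 of 20 for the Lce genes, in 0 of 5 for the simple keratins, in 1 of 32 for the other keratins and in 2 of 3 for Calm4, Loricrin and Ivl (the last 2). Sprr2b, Sprr2d, Sprr2e, Sprr2f, Sprr2h, Sprr2i and Sprr2k, paralogs of the chromosome 3 cluster, all hold a TGACTCA between 193 and 198 bases before the start. They also all hold TATAAA at 29 bases. Such copies are not independent of each other, so the shares are not read as an enrichment over the members. TATAAA was found in 33 of the 74 (44.6%) against 12.4% of all promoters, and in 10 of 14 for the small proline-rich proteins. A match describes letters only, and Sprr3 and the Lce3 genes, high in the same lungs, had no TGACTCA in this window. The sequences lie at chr3:92246197-92246446 (plus strand) for Sprr2d, chr3:92315048-92315297 (plus strand) for Sprr2i, chr3:92393189-92393438 (minus strand) for Sprr1a, chr3:91990450-91990699 (minus strand) for Loricrin and chr3:92481043-92481292 (minus strand) for Ivl. Positions were found by exact match to GRCm39, and each sequence runs 5′ to 3′ to the base before the RefSeq start, with TGACTCA (or its reverse complement) and TATAAA (or its reverse complement) in capitals. Sprr2d and Sprr2i, high only in LPS mice 6 and 7, both have TGACTCA 193 bases and TATAAA 29 bases before the start. Loricrin has them at 48 and 27 bases, and Ivl, which was lower in all LPS lungs, has them at 116 and 29 bases. The Sprr1a window ends inside the annotated first exon.
Sprr2d: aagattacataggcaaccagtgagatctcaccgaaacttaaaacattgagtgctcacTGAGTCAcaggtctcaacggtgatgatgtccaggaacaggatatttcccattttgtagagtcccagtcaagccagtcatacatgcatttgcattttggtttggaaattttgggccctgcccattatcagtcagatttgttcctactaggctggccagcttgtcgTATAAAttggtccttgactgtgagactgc
Sprr2i: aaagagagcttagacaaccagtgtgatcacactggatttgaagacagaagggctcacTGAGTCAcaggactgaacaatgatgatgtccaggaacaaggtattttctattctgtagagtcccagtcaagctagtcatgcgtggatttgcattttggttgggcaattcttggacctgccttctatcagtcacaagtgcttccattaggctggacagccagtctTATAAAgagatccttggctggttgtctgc
Sprr1a: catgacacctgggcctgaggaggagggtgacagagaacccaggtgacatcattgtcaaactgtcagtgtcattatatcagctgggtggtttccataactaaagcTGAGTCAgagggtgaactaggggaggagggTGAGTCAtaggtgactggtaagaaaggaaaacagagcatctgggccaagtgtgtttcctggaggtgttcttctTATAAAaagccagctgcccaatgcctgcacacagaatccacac
Loricrin: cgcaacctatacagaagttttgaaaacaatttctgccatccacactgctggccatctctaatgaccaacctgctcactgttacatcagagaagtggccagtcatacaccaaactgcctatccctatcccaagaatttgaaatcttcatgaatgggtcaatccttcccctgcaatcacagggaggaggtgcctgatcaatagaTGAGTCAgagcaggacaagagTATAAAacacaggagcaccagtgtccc
Ivl: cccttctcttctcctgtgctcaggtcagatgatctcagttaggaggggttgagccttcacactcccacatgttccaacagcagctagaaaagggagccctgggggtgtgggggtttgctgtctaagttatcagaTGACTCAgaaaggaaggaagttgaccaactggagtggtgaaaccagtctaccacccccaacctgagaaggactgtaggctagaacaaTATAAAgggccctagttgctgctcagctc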

How the data were processed

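The authors checked and trimmed the reads of each lung with FastQC 0.11.9 and Trim Galore, aligned them to GRCm39 with HISAT2 2.2.1, summarised them per gene with featureCounts 2.0.1 and deposited the raw count of each gene for each mouse. Annotation release, strand setting and treatment of reads with several matches are not given in the sources used here, so values of paralogs and overlapping genes are uncertain. Symbols, biotypes, coordinates and exon lengths (union of exons) came from GENCODE M39. Counts were fitted for 18560 genes in R 4.3.3 with edgeR 4.0.16 (TMM, expression filter by group, quasi-likelihood test of 3 groups in 1 fit, 5 residual degrees of freedom, Benjamini-Hochberg adjustment over all genes), and the procedure was tested on simulated data. A group with at most 3 counts in each library was taken as a floor, against which folds are lower bounds. Alternatives were DESeq2 1.42.0, other scalings, filters and call rules, the compared groups alone, each library left out, and LPS mice 6 and 7 left out together. Members were named if they reached 1 CPM in a lung. The members and lists were chosen with earlier results of these data known, and the keratin pairs were added after the values were seen. Krt74, Krt8-ps and Sprr2c-ps match the symbols but are not annotated as protein-coding and were left out.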

Additional observations from a re-analysis of the deposited data

How the results depend on the processing

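No paired analysis was made, because the groups hold different mice and the labels do not match mice between groups. Among members, LPS against control, main 46 higher and 4 lower, gave 7 lower without the fold criterion, 2 higher with at least 10 counts required in every library, which removes most squamous genes by construction, 32 higher with DESeq2, and 3 higher and 8 lower without LPS mice 6 and 7 together. Leaving out 1 library gave 37 to 48 higher and 4 lower. Dual treatment against control, main 0 and 0, gave 1 higher and 1 lower with the unadjusted criterion, 1 lower with DESeq2, 1 higher and 2 lower without the filter, 1 higher and 3 lower with only the compared groups or without LPS mice 6 and 7, and 0 to 1 higher and 0 to 2 lower when 1 library was left out. Dual treatment against LPS, main 4 higher and 45 lower, gave 28 lower with DESeq2, 3 lower with at least 10 counts in every library, 8 higher and 2 lower without LPS mice 6 and 7, and 4 higher and 5 to 48 lower when 1 library was left out. Leaving out a library also leaves fewer mice per group, and the cause of these shifts was not tested. Without LPS mice 6 and 7 the LPS group is mouse 1 alone. The direction then turned in LPS against control, with log2 fold changes of −4.90 for Krt14 and −2.99 for Sprr1a, and in dual treatment against LPS, with 1.25 for Krt13 and 1.60 for Sprr1a. LPS mouse 1 was at the floor for others that turned, so that only a bound holds in place of the fitted value. Control was at least 8.76-fold higher for Krt5 (fitted −3.65), 2.83-fold for Krt17 (fitted −6.41) and 2.73-fold for Krt222 (fitted −1.98). Dual treatment was at least 6.72-fold higher for Krt6a (fitted 7.65). Krt17 also turned in dual treatment against LPS (fitted 5.12), but dual-treated mouse 5 had 0 counts of it and no direction is read. For Loricrin (−0.11 and 0.15) mouse 1 lay within the range of the other groups. For Krt4 (−4.27) and Krt78 (−1.46) in LPS against control the bound was under 1, for Krt4 (5.51) in dual treatment against LPS dual-treated mouse 2 was at the floor too, and for further members both groups compared had at most 3 counts in each library, so in all these the sign of the fitted value changed but no direction or fold is read from it. The further members were, in LPS against control, Krt6a (−4.06), Krt6b (−1.86), Lce1a1 (−3.52), Sprr2a2 (−2.64) and Sprr5 (−3.53), and in dual treatment against LPS Lce1a1 (3.08), Lce1i (2.24), Lce3a (2.24), Krt78 (0.54), Sprr2a1 (2.24), Sprr2a2 (3.61), Sprr2b (2.24), Sprr2d (3.99), Sprr2i (3.99), Sprr2j-ps (2.24), Sprr3 (3.08) and Sprr5 (2.24). Promoters with TGACTCA stayed at 11, and those with TATAAA went from 33 to 35, when 50 bases after the start were included.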
